A study of Mus musculus with 20 samples.

Results

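In fasted mouse liver, 1139 regions carried a peak of H3K27ac, an acetylation of histone H3 found at active enhancers and promoters, only where Ppara was present. They are the intervals of the deposited H3K27ac consensus set that were overlapped, by 1 base or more, by peaks of at least 3 of the 4 libraries with Ppara and by no peak of the 4 libraries without it. This rule took 1.73% of the 65776 consensus intervals. Of the 1139 lost regions, 477 had a peak in all 4 Ppara-intact livers and 662 in 3 of them. The regions were thus chosen by their H3K27ac peak calls, and the difference in H3K27ac between Ppara-intact and Ppara-null livers is given below as a description, without a test.

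The study profiled histone marks by chromatin immunoprecipitation and sequencing (ChIP-seq) in whole livers of male C57BL/6 mice, 9 weeks old, after a fast of 24 h. The series title poses the question of how Ppara and fatty acid oxidation shape the transcriptional architecture of the liver. Each of 4 genotypes had 2 livers per mark: wild type (WT), mice lacking Cpt2 in the liver (Cpt2 KO), mice lacking Ppara (Ppara KO) and mice lacking both (DKO). WT and Cpt2 KO are called Ppara-intact here, and Ppara KO and DKO are called Ppara-null. The Cre line behind the liver deletion and the deleted parts of both genes are not given in the sources used here. H3K27ac and H3K4me1, a methylation of histone H3 found at enhancers, were measured in 8 libraries each, and H3K9ac, another acetylation of active chromatin, in 1 WT and 1 Cpt2 KO liver. The numbers in the peak names are shared by both marks and run in separate series for Ppara-intact and Ppara-null livers, so that whatever else these series differ in and the loss of Ppara cannot be told apart. Fewer cells with a mark and less of the mark per cell cannot be told apart in whole liver either.

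Ppara is a fatty acid-sensing nuclear receptor that, with its partner Rxra, attaches to DNA at direct repeats of the sequence AGGTCA, among them the type named DR1. In the fasted liver it is known to drive genes for the uptake, peroxisomal and mitochondrial oxidation and omega-oxidation of fatty acids, for ketone bodies and for the hormone Fgf21. Cpt2 encodes the inner-membrane carnitine palmitoyltransferase, without which mitochondria cannot oxidise long-chain fatty acids.

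Few of the lost regions held a gene start of the RefSeq promoter table (GRCm38.p6, the assembly that mm10 names), and sequences are printed only for starts of that table. That table gave 57 starts of 50 protein-coding genes inside 48 of the lost regions. Shown are the 250 bases before the start of the 3 genes with a match to DR1, and of 3 genes of fatty acid metabolism whose start lay in a strong lost region: the hormone gene Fgf21, the thioesterase gene Acot3 and the fatty acid hydroxylase gene Cyp4a32. Capitals mark a match to DR1 (AGGTCA, 1 free base N, AGGTCA, with at most 2 mismatches in the fixed letters) or, in Cyp4a32, to DR4 (AGGTCA, 4 free bases, AGGTCA, with at most 2 mismatches), a repeat bound by related receptors. Both strands were searched, and the 2 motifs can overlap each other.

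Mogat1, chr1:78510810-78511059, + strand: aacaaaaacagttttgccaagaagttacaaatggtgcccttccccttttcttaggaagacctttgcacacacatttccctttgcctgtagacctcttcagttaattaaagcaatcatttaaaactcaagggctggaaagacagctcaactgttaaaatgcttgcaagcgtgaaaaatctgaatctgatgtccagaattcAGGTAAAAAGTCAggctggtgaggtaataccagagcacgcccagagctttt
1700102P08Rik, chr9:108392584-108392833, + strand: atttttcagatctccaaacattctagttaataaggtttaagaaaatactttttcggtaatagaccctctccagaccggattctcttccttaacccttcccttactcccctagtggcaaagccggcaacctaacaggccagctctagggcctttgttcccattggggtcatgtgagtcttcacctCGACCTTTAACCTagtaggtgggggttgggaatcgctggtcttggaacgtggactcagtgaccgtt
Fam193b, chr13:55571121-55571370, - strand: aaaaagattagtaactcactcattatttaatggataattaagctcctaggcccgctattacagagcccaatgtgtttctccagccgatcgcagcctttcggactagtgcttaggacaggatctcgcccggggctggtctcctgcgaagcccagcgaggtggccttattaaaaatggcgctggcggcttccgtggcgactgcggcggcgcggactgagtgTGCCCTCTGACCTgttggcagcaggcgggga
Fgf21, chr7:45615491-45615740, - strand: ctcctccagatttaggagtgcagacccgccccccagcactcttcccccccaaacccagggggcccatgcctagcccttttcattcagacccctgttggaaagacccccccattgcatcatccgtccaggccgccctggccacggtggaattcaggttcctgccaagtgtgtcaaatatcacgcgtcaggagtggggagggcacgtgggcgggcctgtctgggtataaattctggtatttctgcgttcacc
Acot3, chr12:84051894-84052143, + strand: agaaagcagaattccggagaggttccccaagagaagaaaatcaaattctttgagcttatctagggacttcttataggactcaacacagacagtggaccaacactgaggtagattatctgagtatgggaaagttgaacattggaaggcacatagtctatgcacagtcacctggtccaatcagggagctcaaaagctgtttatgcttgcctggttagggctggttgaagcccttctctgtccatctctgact
Cyp4a32, chr4:115600688-115600937, + strand: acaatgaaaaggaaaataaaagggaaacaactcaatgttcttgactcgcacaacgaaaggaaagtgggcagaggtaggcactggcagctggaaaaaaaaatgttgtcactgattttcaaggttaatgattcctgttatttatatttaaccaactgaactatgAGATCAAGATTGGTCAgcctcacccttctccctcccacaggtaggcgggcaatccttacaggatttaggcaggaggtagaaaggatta

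A DR1 match stood in 3 of the 57 promoter windows of 300 bases under lost regions (5.26%) and in 705 of 21263 promoter windows of protein-coding genes (3.32%). The match of Mogat1 began 51 bases before the start, and those of 1700102P08Rik and Fam193b, read on the opposite strand, 66 and 31 bases before it. DR4 was matched in 2 of the 57 windows (3.51%, against 2.65% of all), at Cyp4a32 and, past the start, at Sun3. The other motifs searched in the same windows were those of the glucocorticoid receptor (GNACA, 3 free bases, TGTNC; 0 of 57, against 0.442% of all), of forkhead factors (TGTTTAC; 2, or 3.51%, against 3.01%), of C/EBP factors (TTGCNNAA; 1, or 1.75%, against 10.2%) and of HNF1 (GTTAAT, 1 free base, ATTAAC, with at most 2 mismatches; 1, or 1.75%, against 1.16%). Such a match describes the letters only. For the lost regions away from gene starts no sequence was read here.

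By the starts of the promoter table, the lost regions were mostly distal. A gene start of the promoter table lay in 48 regions (4.21%), against 11.2% of all consensus intervals, 33.6% of the 18281 intervals called in all 8 H3K27ac libraries and 1.59% of the 1070 regions gained without Ppara (peaks in at least 3 Ppara-null and no Ppara-intact libraries). Where the table held a start on the chromosome, which it did for 1109 regions, the median distance from the middle of the region was 20016 bases. That median was 18809 bases for all consensus intervals, 31605 for the gained regions and 7996 for intervals called in all 8 libraries. The table lacks some starts: a region inside Chrna2 lay 3.09e+06 bases from the nearest. The 30 lost regions of chromosome 18, for which no start was used, also stay in the share. The 48 regions are thus a lower count, and the median distances can be too long. All sets were compared with the same table. The middle of 794 regions (69.7%) lay inside a protein-coding gene body, against 66.1% of all intervals. Median width was 883 bases, with quartiles of 577 and 1329, against 619 bases for all intervals and 603 for the gained regions.

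Fewer of the lost regions than of all intervals lay close to acetylation that stayed. Of the lost regions, 244 (21.4%) lay within 1000 bases of an interval called in all 4 Ppara-null livers, and 519 (45.6%) lay more than 10000 bases from the nearest, against 32.1% and 36.7% of all intervals. The regions had 881 different nearest genes, and 701 of these genes had a single region. Within 20000 bases, 783 genes had a lost region, and 596 of these (76.1%) also had an interval called in all 8 libraries. Another lost region lay within 10000 bases, middle to middle, of 320 regions (28.1%). The shares of 76.1% and 28.1% were not computed over all genes or all intervals, so nothing is read from them.

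Peak strength is given by fold enrichment, the ratio of signal over background that the authors' peak caller reported for each peak, and the highest peak in a region stands for it. "Not called" means that the list of that library held no peak there, which is not a value of 0. Lists held 44454 to 48929 H3K27ac peaks and 61189 to 72151 H3K4me1 peaks per library, and read totals were not analysed here. Among the 662 regions just inside the rule, called in 3 Ppara-intact livers, the median fold of a peak was 6.24. Among the 889 intervals just outside it, called in 3 or 4 Ppara-intact livers and in 1 Ppara-null liver, the median was 6.39 in the intact livers and 5.65 in the null liver. The 3803 intervals called in 2 Ppara-intact and no Ppara-null livers had a median of 5.94, and the 477 lost regions called in all 4 intact livers one of 7.50. WT replicates 1 and 2 had peaks in 1012 and 936 lost regions, and Cpt2 KO replicates 1 and 2 in 886 and 1060.

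The 12 strongest lost regions, by mean log2 fold over the intact livers, included 3 near genes of lipid and energy metabolism that respond to fasting. The region over the start of Fgf21, the fasting hormone (chr7:45613190-45616441), had H3K27ac folds of 15 and 18.4 in WT against 22.0 and 21.6 in Cpt2 KO. At Vnn1, the pantetheinase, a region 9540 bases outside the gene (chr10:23883908-23886387) had 14.4 and 12.3 in WT against 34.0 and 30.5 in Cpt2 KO. Mogat1, which makes diacylglycerol from monoacylglycerol, had a region over its start (chr1:78510505-78511377) with folds of 9.25 and 13.4 in WT livers against 32.8 and 32.0 in Cpt2 KO livers. In all 3 the Cpt2 KO livers lay above the WT livers without overlap, as they did in 50.5% of lost regions and 38.5% of all intervals called in the 4 intact livers, and of the 3 Fgf21 did not pass the test given further on.

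The other 9 of these regions were nearest to genes not on the metabolic lists. The strongest of all lay inside Prox2, a homeobox gene (chr12:85104148-85106052), with folds of 19.5 and 21.4 in WT livers against 36.5 and 37.7 in Cpt2 KO livers. Regions inside Yeats2, a reader of histone acylation, and inside Chrna2, an acetylcholine receptor subunit, had folds of 14.9 to 19.2 in WT and of 27.8 to 31.5 in Cpt2 KO. A region 31857 bases from Cebpb, a transcription factor of the fasting liver (chr2:167720552-167724025), was nearly as high in every intact liver, at 18.8 and 19.3 in WT against 22.0 and 19.8 in Cpt2 KO. At Pik3c2g, a lipid kinase of the liver (chr6:139901200-139902557), WT folds were 10.8 and 12.9 and Cpt2 KO folds 34.3 and 32.3. The remaining 4, at Cops7b, Sema5b, Slc6a16 and Ldb3, ran from 14.5 to 21.1 in WT and from 19.3 to 30.9 in Cpt2 KO, and only at Sema5b did the groups overlap.

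**Figure D1:**
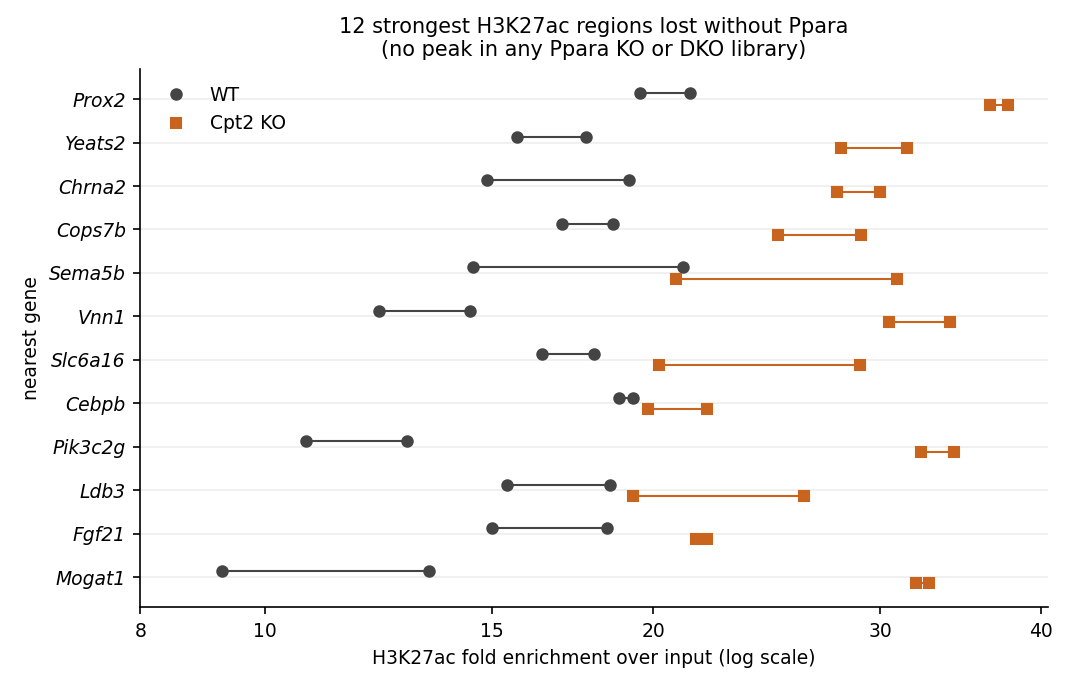
H3K27ac fold enrichment (log axis) at the 12 strongest lost regions, named by nearest gene; circles are the 2 WT livers, squares the 2 Cpt2 KO livers, and lines join the replicates. On these uncentred folds Cpt2 KO lay above WT in 11 of the 12, as in 38.5% of all intervals tested, and at Sema5b the groups overlapped (14.5 and 21.1 against 20.8 and 30.9).

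Lost regions stood at genes of every list of fatty acid metabolism and fasting drawn up here. Over 7 lists with 179 genes in all, 168 had an H3K27ac interval assigned within 20000 bases, and 49 had a lost region, against 783 of 12667 protein-coding genes with an interval. Of the 1131 intervals at these genes 77 (6.81%) were lost and 9 were gained, against 1.77% lost among the 56464 intervals within 20000 bases of any protein-coding gene. By list, the share lost ran from 5.85% (lipid droplets and lipolysis, 10 of 171) to 12.8% (ketone body synthesis and export, 5 of 39). At the 13 genes of de novo lipogenesis 2 of 127 intervals (1.57%) were lost, and at 21 hepatocyte identity genes 3 of 205 (1.46%). The lists, like the regions, were drawn up with earlier results of these data known, and these shares are a description.

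Among genes of mitochondrial oxidation, 5 of 23 had a lost region: Acad11, Acadm, Acsl1, Hadha and Hadhb. Hadha and Hadhb, the subunits of the trifunctional protein that carries out the later steps of long-chain oxidation, lie head to head and had 5 lost regions between them. The strongest, inside Hadhb (chr5:30163981-30167655), had folds of 10.0 and 12 in WT livers against 20.1 and 23.2 in Cpt2 KO livers. Its neighbour (chr5:30167796-30171519) had 10.3 and 10.1 in WT against 17.0 and 15.6 in Cpt2 KO. The shared start of both genes, by contrast, kept an H3K27ac peak in all 8 livers. At Acadm, medium-chain acyl-CoA dehydrogenase, a region 2382 bases from the gene had folds of 5.98 and 8.93 in WT livers against 11.7 and 10.8 in Cpt2 KO livers. A region inside Acat1, the thiolase of ketone body formation, overlapped between the groups, with 12.5 and 7.61 in WT against 11.2 and 13.6 in Cpt2 KO.

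**Figure D2:**
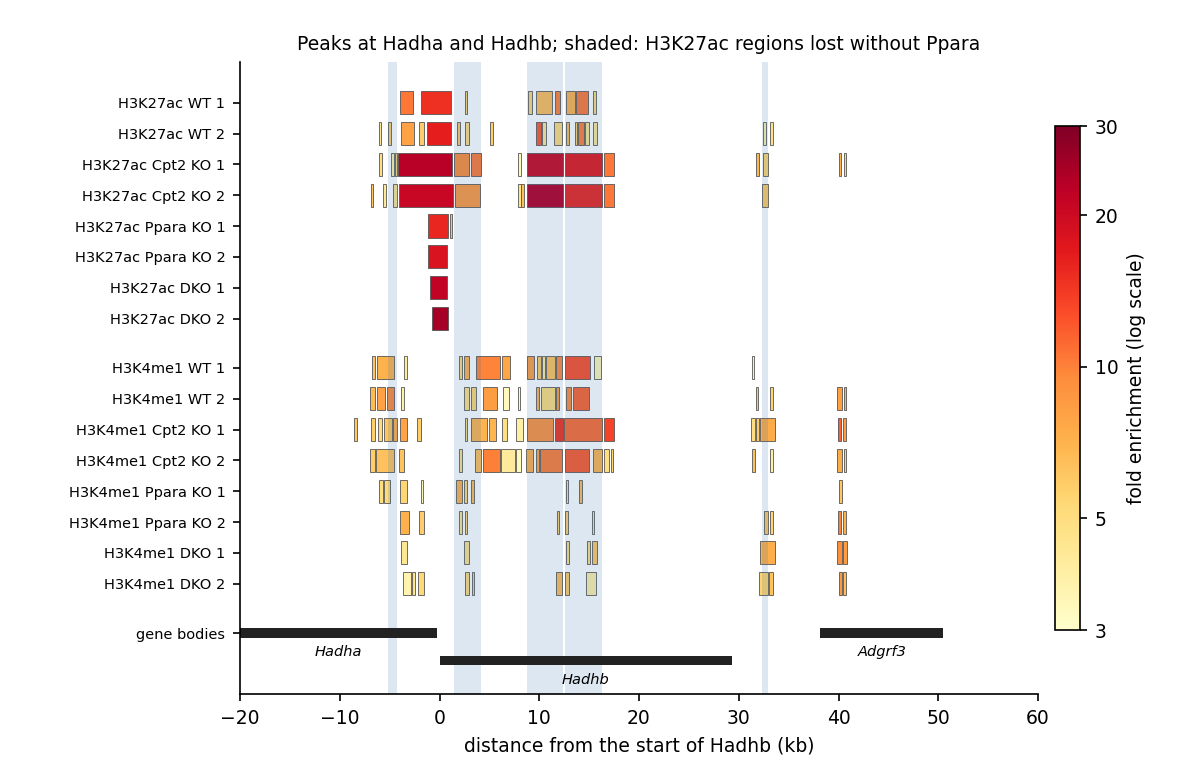
Peaks of each library around Hadha and Hadhb against distance from the start of Hadhb in kb; boxes are peaks, their colour the fold enrichment (log scale), black bars gene bodies, and shaded bands the 5 lost H3K27ac regions. The H3K27ac peak at the start was called in all 8 libraries, while the bands held H3K27ac peaks only in WT and Cpt2 KO.

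Peroxisomal oxidation had lost regions at 12 of 33 genes, and fasting hepatokines and fuel switches at 14 of 45. At Ehhadh, the bifunctional enzyme of the peroxisomal pathway, the region was not called in WT replicate 1 and had folds of 7.25 in WT replicate 2 and of 12.5 and 7.0 in Cpt2 KO. Crat, which moves acetyl groups onto carnitine, had 6.67 and 7.67 in WT against 7.25 and 13.6 in Cpt2 KO. The thioesterases Acot4 (8.33 and 8.67 against 12.8 and 19.1) and Acot8 (9.35 and 7.0 against 15 and 14.2) were higher in both Cpt2 KO livers than in both WT livers. These folds are uncentred, and the same order held in 38.5% of all intervals called in the 4 intact livers. Neither passed the limma test of Cpt2 KO minus WT given further on (adjusted p = 0.172 and 0.177). Acot3, a thioesterase beside Acot4 whose start sequence is printed above, had an uneven region: 34.5 in WT replicate 2 against 9.50 in WT replicate 1 and 12.9 and 10.1 in Cpt2 KO. Acot3 and Acot4, like the Cyp4a genes, belong to clusters of near-identical copies, and how reads with several matches were placed is not given in the sources used here.

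In microsomal omega-oxidation, 3 of 17 genes had lost regions, all Cyp4a fatty acid hydroxylases: Cyp4a12a, Cyp4a31 and Cyp4a32. The region inside Cyp4a31 had folds of 10.0 and 9.85 in WT livers against 16 and 10.1 in Cpt2 KO livers, and the region over the start of Cyp4a32 had 8.0 and 8.22 against 14.1 and 10.3. Uptake and activation genes had 6 of 30, among them Cd36, the fatty acid transporter. Its region was not called in WT replicate 2, and its folds were 9.05 in WT replicate 1 and 19.2 and 23.5 in Cpt2 KO. Near Slc27a2, an acyl-CoA synthetase and transporter, folds of 13.5 and 9.83 in WT overlapped those of 17.0 and 9.07 in Cpt2 KO. Of the lipid droplet genes 9 of 27 had a lost region. At Fitm1, a droplet-forming protein, it covered the start, with 10.6 and 11.2 in WT against 8.0 and 11.8 in Cpt2 KO.

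Among fuel-switch genes, lost regions stood at Pdk1, a kinase that inhibits pyruvate dehydrogenase (7.82 and 12.8 against 22.0 and 20.4), and near G6pc, glucose-6-phosphatase (9.76 and 8.87 against 22.2 and 17.0). Ucp3, a mitochondrial carrier, had 5.14 and 3.88 in WT against 15.9 and 16.8 in Cpt2 KO. On uncentred folds, Cpt2 KO lay above WT without overlap there, as in 38.5% of all intervals called in the 4 intact livers. Gpd2, the mitochondrial glycerol phosphate dehydrogenase, was not called in WT replicate 2, had 5.82 in WT replicate 1 and reached 15.2 and 13.8 in Cpt2 KO. By contrast, the groups overlapped at Ppargc1b, a coactivator (13 and 8.60 against 15.6 and 12.4), and at the stronger region of Pank1, a kinase of coenzyme A synthesis (9.33 and 11.7 against 12.4 and 8.0). A weaker region near Pank1 had folds of 5.11 and 8.50 in WT livers against 11 and 11.2 in Cpt2 KO livers. The second named region of Vnn1 (chr10:23894245-23895696) had its middle inside the gene and spanned an edge of the gene. No start of the promoter table lay in it. Its folds were 8.71 and 9.83 in WT against 18.3 and 13.4 in Cpt2 KO.

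Of the 881 nearest genes, 53 had 3 or more lost regions, 127 had 2 and 701 had 1. How many genes hold several intervals of other sets, or by their length, was not computed, so no grouping is read from these counts. Banp, a nuclear matrix protein gene, had the most, with 7 regions whose folds ran from 3.00 to 10.8 where called. Tns1, Pank1, Elmod3 and Papss2 had 5 each. Of the genes with 4, those with the highest mean folds were Paqr9, Hadhb, Pdzrn3, Prkcb, Aacs, Sipa1l1 and Rreb1. All 4 regions of Prkcb, a protein kinase C gene, went uncalled in WT replicate 2, and all 4 of Aacs, acetoacetyl-CoA synthetase, went uncalled in Cpt2 KO replicate 1. Such regions met the rule through the other 3 livers.

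The Ppara gene itself (chr15:85734910-85806851) held 3 lost regions, all weak and all without a peak in WT replicate 2. The first, at chr15:85766210-85767293, had folds of 6.44 in WT replicate 1 and of 6.31 and 5.80 in Cpt2 KO, and the other two lay between 5.0 and 6.64. Within 5 Mb of the middle of Ppara, 15 of 482 intervals (3.11%) were lost and 11 (2.28%) gained, against 1.73% and 1.63% over the genome. Whether the altered allele or its surrounding sequence plays a part in the counts there was not tested. Its partner Rxra, the coactivator gene Ncoa1 and the bile acid receptor gene Nr1h4 also had lost regions. No lost region was assigned to Cpt2.

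No gene on the marker lists of Kupffer cells, stellate cells, endothelial cells, cholangiocytes or hepatocytes, with 10 genes each, had a lost region within 20000 bases. Of the hepatocyte markers, 9 had intervals called in all 8 libraries, and these 9 had 103 intervals with 0 lost. The other lists had 45, 39, 115 and 15 intervals, also with 0 lost. At the 1.77% lost among all gene-assigned intervals, lists of this size would hold few lost regions or none, so nothing is read from these counts. Of the same intervals 2 were gained at Kupffer cell markers, 1 at cholangiocyte markers and 1 at hepatocyte markers.

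H3K4me1 was not used to choose the regions, though the peak names of both marks carry the same numbers, and fewer of them carried it without Ppara. The share of lost regions under an H3K4me1 peak was 81.3% and 77.3% in the WT livers, 83.8% and 82.3% in the Cpt2 KO livers, 53.5% and 50.7% in the Ppara KO livers and 49.9% and 50.2% in the DKO livers. Every Ppara-intact liver was above every Ppara-null liver. Without Ppara the mean over 4 libraries fell by 30.1 percentage points, while within a genotype the replicates differed with an SD of at most 2.79 (n = 2). Over all consensus intervals the genotype means lay between 49.4% and 50.2%, and over intervals called in all 8 libraries between 66.9% and 76.3%. Over the gained regions the order was the other way round, from 29.6% ± 1.39 (SD, n = 2) in WT to 75.1% ± 3.24 (SD, n = 2) in DKO. The mark at the lost regions thus came down to about the share of all intervals, rather than to 0.

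**Figure D3:**
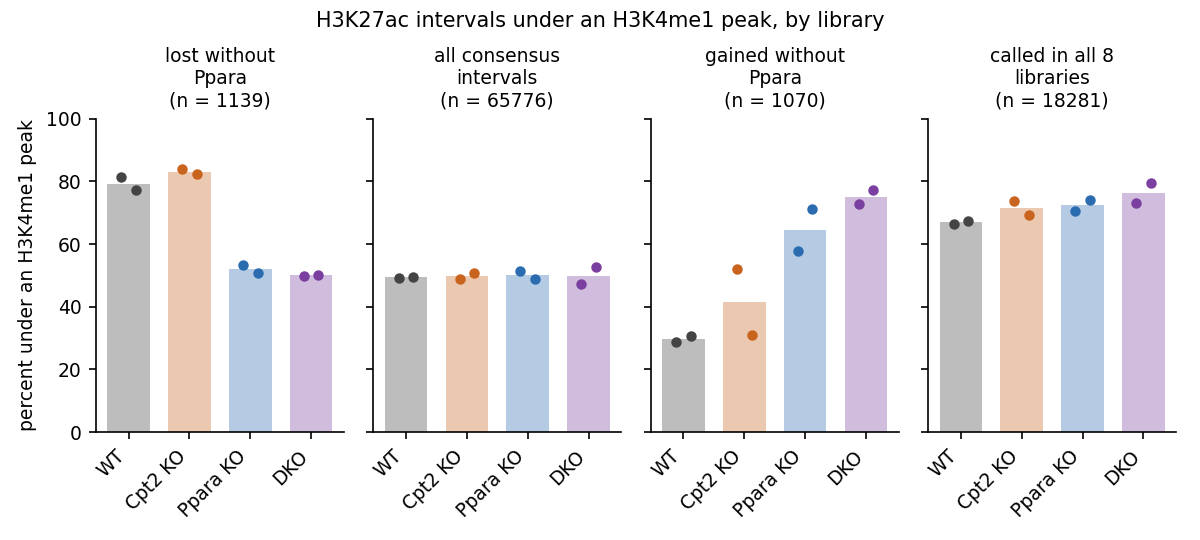
Percent of H3K27ac intervals under an H3K4me1 peak, by library (points) and genotype mean (bars), for lost regions, all consensus intervals, gained regions and intervals called in all 8 libraries. Lost regions fell from means of 79.3% and 83.1% with Ppara to 52.1% and 50.04% without it, while the means over all intervals stayed between 49.4% and 50.2%.

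Region by region, H3K4me1 followed several patterns. At 204 lost regions (17.9%) it had the same pattern as H3K27ac, with peaks in at least 3 Ppara-intact livers and in no Ppara-null liver, a pattern found at 1.98% of all H3K27ac consensus intervals and at 2.84% of all H3K4me1 consensus intervals. The reverse pattern occurred at 1 lost region. At 349 regions (30.6%) H3K4me1 was called in all 8 livers, at 67 (5.88%) in none, and 518 had another pattern. Of the strongest regions, those at Prox2, Yeats2, Cops7b, Sema5b, Pik3c2g and Mogat1 had H3K4me1 in at least 3 intact livers and in no null liver. At Sema5b, for example, H3K4me1 folds were 21.2 and 14.8 in WT against 17.0 and 20.4 in Cpt2 KO, and Mogat1 was not called in WT replicate 2. At Fgf21 and Ldb3, in contrast, H3K4me1 was called in all 8. With the lost regions in 4 classes of near-equal size by mean H3K27ac fold, the pattern of loss took 31.6% of the highest class (90 of 285) and 9.15% of the lowest (26 of 284). By position, it took 19.7% of regions more than 10000 bases from acetylation that stayed and 15.2% of those within 1000 bases. The regions farther away also had the higher mean H3K27ac fold (median 7.26 against 6.18).

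H3K4me1 fold was tested at intervals with a peak in all 8 livers. Of the 1158 H3K4me1 consensus intervals touching a lost region, 413 were called in all 8 livers and entered a limma model with the other intervals called in all 8, 19526 in total, on log2 folds centred on each library's median. An interval without a peak in some liver could not enter. The value of an interval is its highest peak, which can lie outside the lost region. The 413 intervals touched 446 lost regions, among them regions without an H3K4me1 peak of their own in some liver. The region over the start of Cyp4a32, for example, had H3K4me1 in every intact and no null liver, yet its interval was tested. At an adjusted p (Benjamini-Hochberg over all 19526) under 0.05, limma called 3 of the 413 lower and 0 higher in Ppara-null livers, against 0.128% of all intervals in either direction, 0.0819% lower and 0.0461% higher. The 3 calls did not hold in several smaller sets of libraries: 0 were called without WT replicate 1, without WT replicate 2 or without DKO replicate 1, and leaving out the second Cpt2 KO or the second DKO liver left 1. Without Cpt2 KO replicate 1 there were 49, all lower, and with uncalled libraries filled in (intervals called in at least 4 of 8) there were 107 of 897, all lower. Over all intervals these gave 537 higher and 485 lower of 20516, and 160 higher and 258 lower of 47772. At an unadjusted limma p under 0.05 stood 146 of the 413 (35.4%) and 13.9% of all tested.

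The interval near Cebpb fell most clearly. With Ppara its H3K4me1 folds were 22.1 and 21.2 (WT) and 16 and 21.3 (Cpt2 KO), and without it 7.31 and 6.50 (Ppara KO) and 6.29 and 10.8 (DKO). By limma the log2 difference was -1.41 (SE 0.20, adjusted p = 0.0152), with every Ppara-null liver below every intact liver. In the lost region itself, Ppara KO replicate 2 had no H3K4me1 peak and DKO replicate 2 had a fold of 6.25. Llgl2, a cell polarity gene, had a difference of -0.94 (SE 0.17, limma adjusted p = 0.0488) in an interval 15665 bases wide. Slc22a23, a transporter gene, had a difference of -0.96 (SE 0.18, limma adjusted p = 0.0488). The Slc22a23 folds were 12.6 and 14.5 in WT against 10 and 9.89 in Ppara KO. They were 16.8 and 14.5 in Cpt2 KO against 5.57 and 5.71 in DKO, so the fall was uneven between the pairs. The next interval, in Hadhb, missed the threshold. Its folds were 12.5, 11.4, 11 and 11.8 in the intact livers and 6.52, 5.64, 6.00 and 5.97 in the null livers, a difference of -0.96 (SE 0.19, limma adjusted p = 0.0562). The interval of Fgf21 had folds of 10.0, 8.50, 18.6 and 13.4 in the intact livers and of 5.80, 5.4, 7.05 and 7.85 in the null livers, a difference of -0.91 (SE 0.19, limma adjusted p = 0.0765). In the Acot3 interval the groups were closer, at 10.4 to 12.6 in intact and 6.40 to 9.26 in null livers. The difference was -0.45 (SE 0.19, limma adjusted p = 0.307). Over the lost region of Acot3 itself, the H3K4me1 folds of the null livers were 8.75 to 9.44.

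As a group, the intervals at lost regions lay lower without Ppara whether or not Cpt2 was present. The median log2 difference was -0.30 for Ppara-null minus Ppara-intact over the 413 intervals, against -0.01 over all 19526, and 355 of the 413 (86.0%) were negative against 51.2% of all. In all 4 Ppara-null livers the fold was below that of all 4 intact livers at 87 intervals (21.1%), against 3.13% of all tested, and above at 1 (0.242%, against 2.61%). For Ppara KO minus WT the median was -0.31 (-0.01 over all tested), and for DKO minus Cpt2 KO it was -0.29 (0.00 over all tested). Neither pairwise comparison gave a limma call at adjusted p under 0.05 at these intervals or elsewhere, so that 0 of 19526 passed in each. At an unadjusted limma p under 0.05 stood 82 and 92 of the 413, and 1648 and 1515 of all.

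With the loss of Cpt2 the median shift in H3K4me1 at these intervals was near 0. For Cpt2-null minus Cpt2-intact the median was -0.02 (0.00 over all tested), and limma called 0 of 413 and 0 of 19526 at adjusted p under 0.05, with 33 and 1916 at an unadjusted limma p under 0.05. Without Cpt2 KO replicate 2, limma called 3 of 418 intervals, 1 higher and 2 lower, and 76 higher and 96 lower of 20447 over all. The interaction, the difference between DKO minus Cpt2 KO and Ppara KO minus WT, had a median of 0.01, with 0 calls at adjusted p under 0.05 by limma and 16 of 413 at an unadjusted p under 0.05 (566 of all 19526). The largest named interaction estimate, near Dynlrb2, a dynein light chain gene, was -1.70 (SE 0.42, limma adjusted p = 1.00).

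**Figure D4:**
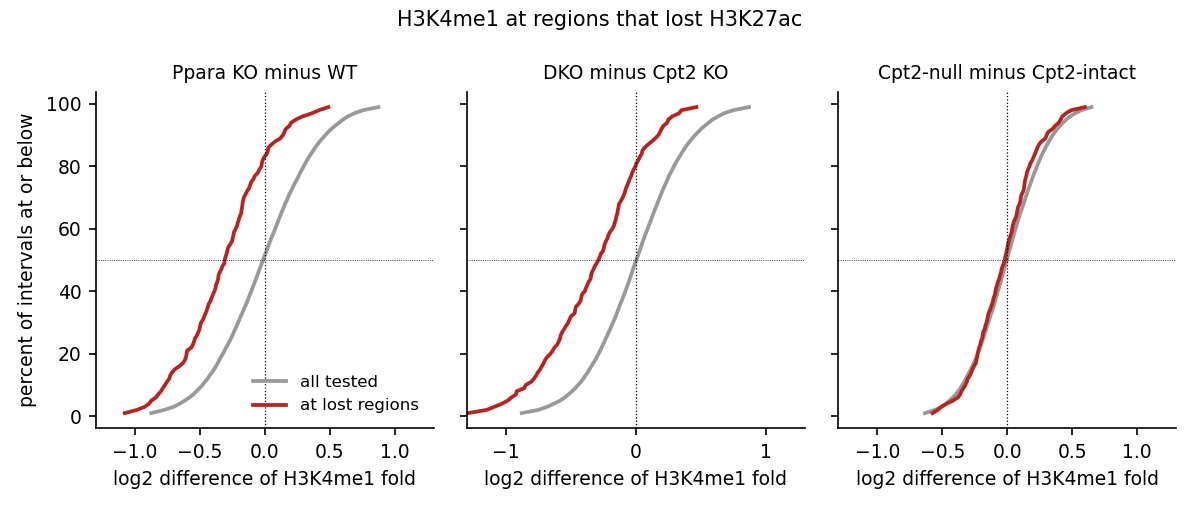
Percent of H3K4me1 intervals (vertical axis, percentiles 1 to 99) at or below each log2 difference of fold (horizontal axis), for the 413 tested intervals at lost regions (red) and all 19526 (grey). Red lies left of grey for Ppara KO minus WT (medians -0.31 and -0.01) and DKO minus Cpt2 KO (-0.29 and 0.00), and on it for Cpt2-null minus Cpt2-intact (-0.02 and 0.00).

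H3K9ac was analysed here only in Ppara-intact liver, where it covered a minority of the lost regions. The WT library had an H3K9ac interval at 331 of them (29.1%) and the Cpt2 KO library at 353 (31.0%), with 261 in both and 716 in neither, against 34.5% and 34.6% of all consensus intervals. At intervals called in all 8 H3K27ac libraries the shares were 72.8% and 71.7%, and at gained regions 6.82% and 7.38%. The regions at Fgf21, Prox2, Chrna2, Cebpb and Ldb3 had H3K9ac in both livers, and those at Mogat1, Vnn1, Yeats2, Cops7b, Pik3c2g and Slc6a16 in neither. With a single library per genotype these shares have no replicate check.

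Within Ppara-intact liver, the lost regions differed in how much H3K27ac they carried with and without Cpt2. This comparison uses the intact libraries, whose calls entered the rule without regard to Cpt2, and only regions with a peak in all 4. Of the 477 such regions, limma (4 intact libraries, centred log2 folds, Benjamini-Hochberg over 20947 intervals) called 69 higher and 8 lower in Cpt2 KO at adjusted p under 0.05, against 3.81% higher and 6.18% lower of all tested (9.99% in either direction). The median log2 difference was 0.11, against -0.06 over all tested. It turned to -0.06 without Cpt2 KO replicate 1 (-0.05 over all tested) and to -0.06 without Cpt2 KO replicate 2 (-0.08 over all tested). It was 0.02 without WT replicate 2 and 0.03 with uncalled libraries filled in. These medians also cover regions outside the 477, as no peak was needed in a liver left out or filled in. Leaving out Cpt2 KO replicate 1 added 253 regions, Cpt2 KO replicate 2 added 79 and WT replicate 2 added 203. Without centring, every median moved up by about the same amount, to 0.34 for the lost regions and 0.17 over all tested, and the calls became 109 higher and 5 lower at lost regions and 1922 higher and 634 lower overall. In 241 of the 477 (50.5%) both Cpt2 KO folds were above both WT folds, against 38.5% of all tested, and in 62 (13%) both were below, against 17.7%.

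Calls at lost regions were fewest when WT replicate 2 or Cpt2 KO replicate 1 was left out, which also brought in regions not called in that liver. Without WT replicate 2 limma called 14 of 680 tested and without Cpt2 KO replicate 1 it called 21 of 730, all higher. Over all intervals the first gave 76 higher and 58 lower of 22887, and the second 111 higher and 245 lower of 22238. The smallest peak width, which follows the fragment length used in peak calling, was 206 and 198 bases in the WT libraries and 221 and 220 in the Cpt2 KO libraries, and its part in the difference was not tested. Calls of higher fold were most frequent among the strongest regions, at 60 of 195 tested in the highest of the 4 classes of mean fold and 0 of 77 in the lowest, a division that uses the same folds. By distance from acetylation that stayed, 44 of 252 regions more than 10000 bases away were called higher and 4 lower. Of the 79 within 1000 bases, 2 were called higher and 2 lower. The lost regions farther away were also stronger, with a median of the mean fold of 7.26 against 6.18. All intervals tested were not split by distance, so nothing is read from this contrast.

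The largest difference was 24252 bases from Sel1l3 (chr5:53237121-53238287). Its H3K27ac folds were 7.50 and 7.25 in WT against 51.8 and 45.8 in Cpt2 KO, a limma log2 difference of 2.49 (SE 0.22, adjusted p = 0.0021), and like Bfar, Det1, Pknox2, Ylpm1 and Prrg4 it was called in all 9 alternative analyses. Oscar, a receptor of myeloid cells, had a region with 6.40 and 4.29 in WT against 28.8 and 23.6 in Cpt2 KO (2.09, SE 0.30, limma adjusted p = 0.00669). The next 8 were at D630045J12Rik, Nxph1, Bfar, Det1, Calcrl, Pknox2, Ylpm1 and Prrg4, with log2 differences from 2.04 to 1.67 and limma adjusted p from 0.00555 to 0.0151. At Bfar, a regulator of apoptosis, folds were 7.29 and 10.9 in WT against 41.9 and 35.6 in Cpt2 KO. None of these 10 genes is on a metabolic list.

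On the metabolic lists, 39 of the 77 lost regions were tested, with 4 called higher and 1 lower, against 9.99% of all intervals tested and 16.1% of the lost regions in either direction. Higher in Cpt2 KO were Ucp3 (log2 difference 1.64, SE 0.30, limma adjusted p = 0.0115), Mogat1 (1.31, SE 0.23, limma adjusted p = 0.0108), the distal region of Vnn1 (1.05, SE 0.23, limma adjusted p = 0.0193) and a region in Cyp4a32 next to that over its start (1.15, limma adjusted p = 0.033), the last named after its values were seen. Folds of that Cyp4a32 region were 4.80 and 5.4 in WT against 17.0 and 10.3 in Cpt2 KO. Lower was a region 26 bases from Pcx, pyruvate carboxylase, with 8.58 and 8.82 in WT against 4.45 and 4.83 in Cpt2 KO (-1.14, SE 0.28, limma adjusted p = 0.0279). The other regions called lower were at Pitx3 (-1.40, limma adjusted p = 0.0143), Pdp2, the phosphatase that activates pyruvate dehydrogenase (-1.21, limma adjusted p = 0.033), Isoc1, Tppp, Arid1b, Gm52006 and Cntnap4. All 8 lower calls are named after their values were seen. Each of them lost its call in 3 or more of the 8 or 9 alternative analyses that could test it, Arid1b and Gm52006 in 7, and Vnn1 lost its call in 3 of 9.

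Fgf21 and Hadhb did not pass this test. The Cpt2 KO minus WT difference was 0.16 at Fgf21 (SE 0.22, limma adjusted p = 0.671) and at the stronger Hadhb region 0.75 (SE 0.25, limma adjusted p = 0.071). Of the 12 strongest regions, Vnn1, Pik3c2g (1.27, SE 0.22, limma adjusted p = 0.00931) and Mogat1 were called, and Prox2 came close (0.63, SE 0.19, limma adjusted p = 0.0552). At Cebpb the difference was -0.10 (SE 0.22, limma adjusted p = 0.806), and its sign was positive without centring (0.13) or after quantile normalization (0.01).

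**Figure D5:**
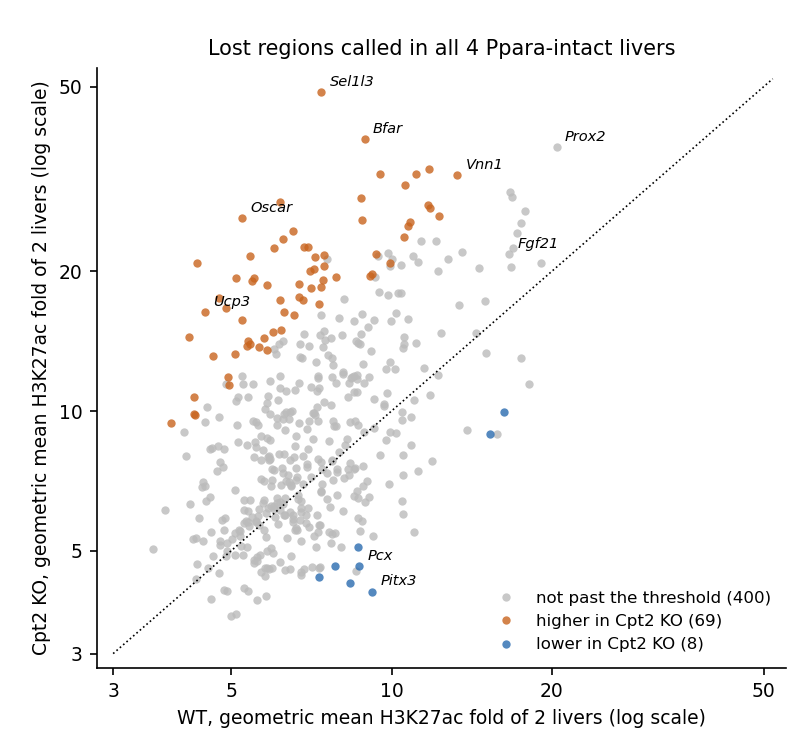
Geometric mean H3K27ac fold of the 2 Cpt2 KO livers against that of the 2 WT livers (both axes logarithmic) for the 477 lost regions called in all 4; the dotted line marks equal, uncentred folds. Regions called higher in Cpt2 KO (69, orange) lie above the line, from WT means of 3.85 upwards, and those called lower (8, blue) below the line.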

How the data were processed

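Histone ChIP-seq peaks and consensus intervals were analysed as the authors deposited them, on mm10. Peak names of the H3K27ac library of Ppara KO replicate 2 carry the build word mmi90, where the other libraries carry mm10. The bases shared by both Ppara KO replicates, over all bases covered by either, were 0.723. That ratio was 0.713 in WT, 0.726 in Cpt2 KO and 0.717 in DKO, and the library was used. What the word stands for was not tested. BWA and MACS2 2.1.0 are named in the submitters' processing notes. As deposited by the authors, peak lists hold a fold enrichment (a ratio) and −log10 p and q values for each peak, per sample, with a lowest −log10 q of 5.21. These deposited values carry no read depth, so no counting interval can be given.

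Peaks were assigned to consensus intervals by an overlap of 1 base, and the highest fold in an interval was its value. Folds were log2-transformed, centred on each library's median and fitted with limma 3.58.1 (R 4.3.3, trended eBayes) over all intervals called in every library compared, with Benjamini-Hochberg adjustment. Fits were tested on simulated data. Replicates are separate samples by their labels, and p-values measure only the spread between these samples, which may be technical. Genes are the nearest protein-coding genes of RefSeq (GRCm38.p6), and lists took intervals within 20000 bases. Distance to a gene, or a place inside it, is that of the middle of the region.

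Named were the 12 strongest regions called in all 4 intact livers, the 25 strongest at genes of the metabolic lists, the regions of 12 genes with 3 or more, Ppara and Cpt2, and for each test the 10 largest differences past the threshold or, where fewer than 5 passed, the 5 with the lowest p. Regions and lists were chosen with earlier results of these data known. Promoters of chromosome 18 were not used here.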

Additional observations from a re-analysis of the deposited data

How the results depend on the processing

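The number of lost regions was 477 when all 4 Ppara-intact livers had to be called, and it ran from 556 to 1450 when single livers were left out. In H3K4me1 at these regions, calls for Ppara-null minus Ppara-intact were 1 after quantile normalization, 107 with uncalled libraries filled in and 0 to 49 with 1 liver left out. With filling, Ppara KO minus WT gave 1 call and DKO minus Cpt2 KO gave 6. Leaving out 1 liver gave 0 to 1 call for Ppara KO minus WT and 0 to 3 for Cpt2-null minus Cpt2-intact. With only peaks of −log10 q of 10 or more, the H3K4me1 share at lost regions changed by -32.1 percentage points. In H3K27ac, Cpt2 KO minus WT gave 14 to 111 calls with 1 liver left out, and 12 of the 14 without WT replicate 2 were among the 77. Leaving out a liver also changed which intervals were tested, as no peak was needed in it. The cause of any of these differences was not tested.

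Replicate numbers shared across groups were fitted as a replicate block, which gave 0 H3K4me1 calls for Ppara-null minus Ppara-intact and 119 H3K27ac calls for Cpt2 KO minus WT. Deviations of same-numbered livers correlated at -0.49 to 0.10 between groups in H3K4me1 and at 0.15 in H3K27ac. The value of -0.49 means that Cpt2 KO replicate 1 tended to deviate with Ppara KO replicate 2. What same-numbered livers share was not tested.

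Of 62 single results, 488 alternatives kept direction and side of the threshold, 73 lost the call, 26 gained it and 12 changed sign. Cpt2 KO minus WT at Slc27a2 was 0.11 without centring and ran from -0.49 to 0.27 with 1 liver left out. At Cebpb it was 0.011 after quantile normalization and 0.13 without centring. With 1 liver left out it ran from -0.071 to 0.67 at Sema5b, -0.24 to 0.54 at Ppargc1b, -0.27 to 0.78 at Crat, -0.12 to 0.40 at Cyp4a31 and -0.35 to 0.54 at Acat1. None of these genes was called. Read depth, which limits which weak peaks are called, is unknown.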

Other observations

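By chromosome, the share of H3K27ac intervals that were lost ran among the autosomes from 1.16% on chromosome 17 to 2.69% on chromosome 15 (77 of 2862), which carries Ppara. Within 10 Mb of Ppara 33 of 1000 intervals (3.3%) were lost and 17 (1.7%) were gained.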
